A study of Mus musculus and Macaca nemestrina with 20 samples.

Results

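The ALK ligands Alkal2 and Alkal1 and the receptors Alk and Ltk were followed in bulk RNA sequencing of DRG, the dorsal root ganglia in which the somata of body sensory neurons sit among glia. The 4 genes were found by symbol, as 4 of the 29766 genes of the mouse tables and, in capitals, as 4 of the 35194 genes of the monkey tables. All 4 had a row in both species. In mice 2 of them, Alkal2 and Ltk, passed the filter on low counts, and in monkeys only ALKAL2 did. The family was chosen with the mouse genotype differences in these libraries already known, so its values in that comparison are a description and carry no test.

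The mouse groups were 7 libraries labelled as ADAM17 knockout (KO) and 7 control libraries labelled ADAM17 flox, split over a labelled batch 1 (4 knockout and 3 flox) and batch 2 (3 knockout and 4 flox). The controls thus carry the floxed allele by that label, while their library names read ADAM17WT. The labels name no Cre driver, strain, age or sex for either group. The pig-tailed monkey (Macaca nemestrina) groups were 3 libraries of ganglia serving skin that received SADBE (squaric acid dibutyl ester, which sensitises skin on contact) and 3 libraries of the vehicle group, with no dose or time in the labels. Nothing in the labels says how many animals a library holds, so errors and p-values measure the spread between libraries, which may be technical.

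Alk is a receptor tyrosine kinase of the insulin receptor superfamily, and Ltk is its closest relative. Alkal2 and Alkal1 are small secreted proteins that bind the outer part of these receptors and switch on their kinase, which signals through adaptors to the RAS-MAPK, PI3K-AKT and STAT3 routes. In sensory ganglia the Alkal2 and Alk pair is known as a route that sensitises pain neurons, and Alk is better known as an oncogene of neuroblastoma, a tumour of the related sympathetic lineage.

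Estimated counts per library, from which all fold changes below come, lay between 12119871 and 14718895 for the batch 1 knockouts and between 46931308 and 52085645 for their flox controls, so depth differed between genotypes there. In batch 2 knockouts held between 27868343 and 30767407 and controls between 30907687 and 35989896. Monkey libraries held 9015657 to 22424909 (SADBE) and 13700975 to 27111818 (vehicle). Levels are given in TPM, a share of transcripts corrected for length. The deposited mouse TPM columns sum to different totals. These were 60.1% to 83.4% of the full TPM scale in batch 1 and 95.4% to 97.9% in batch 2, so levels are compared within a batch. That does not put batch 1 on a common scale, since its flox libraries reached 60.1% to 79.7% and its knockout libraries 78.7% to 83.4%. Ranges and overlaps of TPM in batch 1 below are not corrected for this. The targeted gene, Adam17, had a log2 fold change of 0.029 ± 0.18 (SE) with an adjusted p of 0.930 in edgeR, which does not check the genotype, since the deleted exons and tissue are not given. All 10 markers of sensory neurons were detected in mice, with a summed level of 2820 to 11550 TPM. Knockout libraries 6 and 7 differed from the rest in Y-linked RNA, with Ddx3y at 19.2 and 22.0 TPM against 0 to 0.129 TPM in the other 12, so results are also given without this pair, which leaves 1 knockout library in batch 2.

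Alkal2 lies on mouse chromosome 12 (GRCm38, 30884322 to 30893854, plus strand), with 1 annotated transcript of 5 exons in GENCODE M21. Alk is on chromosome 17 (71868972 to 72604627, minus strand), Ltk on chromosome 2 (119751320 to 119760431, minus strand) and Alkal1 on chromosome 1 (6359218 to 6394731, plus strand). The 250 bases before the RefSeq start of Alkal2 (GRCm38.p6, chr12:30884074-30884323, plus strand) are shown because Alkal2 is the member whose level separated the genotypes. Of the 4 members, 3 had a promoter in the RefSeq table. Capitals mark the match to TGACGT, the core of the site bound by CREB and ATF factors.

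Alkal2 promoter: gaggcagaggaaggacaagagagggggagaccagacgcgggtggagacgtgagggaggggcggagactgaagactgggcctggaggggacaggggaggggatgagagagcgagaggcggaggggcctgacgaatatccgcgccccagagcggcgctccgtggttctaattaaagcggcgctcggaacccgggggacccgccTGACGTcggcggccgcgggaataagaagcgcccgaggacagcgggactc

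TGACGT was searched on both strands together with TGANTCA, the AP-1 site, and TTCNNNGAA, a STAT site. TGACGT occurred once in the Alkal2 window, starting 49 bases before the start of transcription, and the other motifs were not found there. The windows of Alk and Ltk held none of the 3 motifs. Over 32851 windows of the same length in the RefSeq table, 6.47% held TGACGT, 6.75% held TGANTCA and 7.02% held TTCNNNGAA. The Alkal2 window had 68% G and C and 25 CG dinucleotides. A match is a description of these letters, and binding was not measured.

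Alkal2 was the one member of the family with a large difference between the mouse genotypes, 25.8-fold higher in knockout DRG, while its receptors Alk and Ltk had few reads in both. The batch 1 knockout libraries 1 to 4 had 163, 159.9, 123 and 67.7 TPM of Alkal2, and flox libraries 1 to 3 had 10.9, 6.79 and 5.02 TPM. The batch 2 knockout libraries 5 to 7 had 207, 157 and 209 TPM, and flox libraries 4 to 7 had 3.04, 4.79, 3.22 and 7.50 TPM. The genotypes did not overlap: the lowest knockout value, in library 4, was several times the highest flox value, in library 1. Of 15654 tested genes, 2.41% had all knockout libraries above all flox libraries within each batch.

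Pooling the TPM scales of the batches, Alkal2 averaged 155.2 ± 48.8 TPM over the 7 knockout libraries and 5.89 ± 2.76 TPM over the 7 flox libraries (SD). By mean TPM it lay above 44.7% of tested genes in flox and above 94.1% in knockout libraries. The log2 fold change of counts was 4.69 ± 0.34 (SE) and 16 tested genes had a larger one. Without knockout libraries 6 and 7 it was 4.44. edgeR's quasi-likelihood test called 15.5% of all tested genes at an adjusted p under 0.05, 7.97% as higher and 7.51% as lower in knockout. Among the 2 tested members it called Alkal2 as higher and did not call Ltk, a count from which nothing is read, since this comparison was known when the family was chosen.

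**Figure D1:**
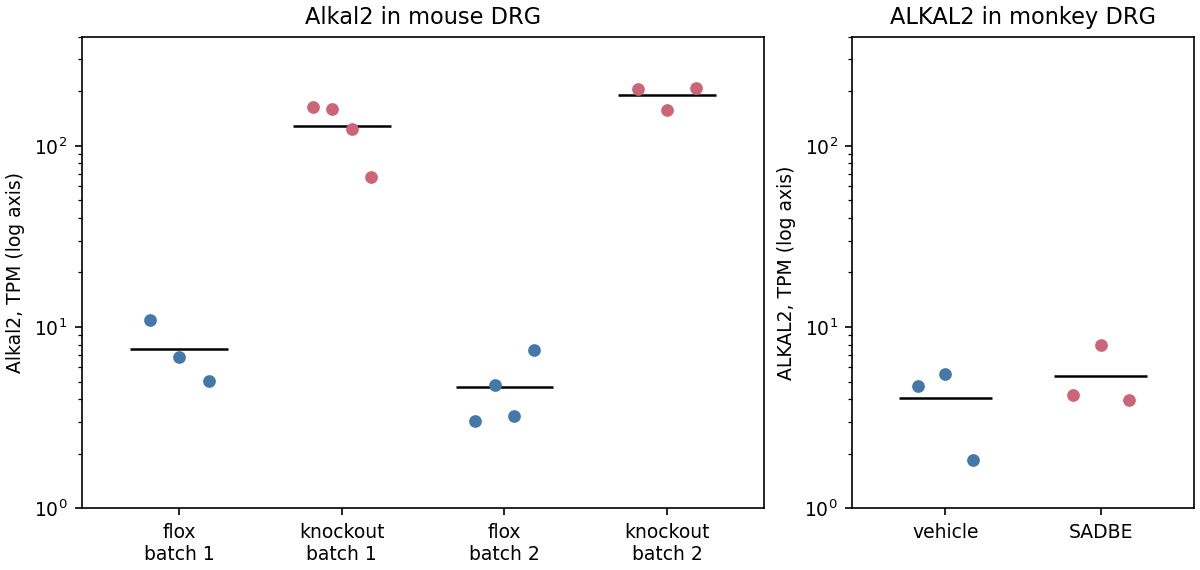
TPM of Alkal2 in each mouse library by genotype and batch (left) and of ALKAL2 in each monkey library by treatment (right), both on a log axis; points are libraries and lines are group means. All knockout libraries lie between 67.7 and 209 TPM and all flox libraries between 3.04 and 10.9 TPM, while the SADBE and vehicle libraries overlap between 1.85 and 7.92 TPM.

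The size of the Alkal2 difference was also taken within each batch. Its log2 fold change was 3.88 ± 0.33 (14.7-fold) within batch 1 and 5.50 ± 0.29 (45.3-fold) within batch 2. Knockout levels were 128.5 ± 44.4 TPM (SD, n = 4) in batch 1 and 190.8 ± 29.5 TPM (SD, n = 3) in batch 2. Flox levels were 7.57 ± 3.01 TPM (SD, n = 3) and 4.64 ± 2.07 TPM (SD, n = 4). The fold differed by 1.59 ± 0.42 on the log2 scale, higher in batch 2, with an adjusted p of 0.0829 in edgeR, where 1.03% of tested genes were called, 0.658% with a higher and 0.371% with a lower value in batch 2. That call depended on the tool and on 1 library: DESeq2 gave 1.58 ± 0.43 with an adjusted p of 0.0120, and edgeR without flox library 7 gave 1.92 with an adjusted p of 0.0493. In edgeR, leaving out each of the other 13 libraries gave adjusted p-values from 0.0584 to 0.209. The batches also differ in the Y-linked RNA of knockout libraries 6 and 7 and in the depth gap of batch 1. The part of either in this difference was not tested.

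Part of the Alkal2 transcript shares its locus with another gene. The last 529 of its 1509 exon bases, all of them in the 3′ UTR, lie over the 3′ UTR of Acp1, a phosphatase gene on the opposite strand. The labels do not state that the libraries kept strand, so reads of this stretch cannot be told apart, and the flox level of Alkal2 is uncertain to that extent. Acp1 ran from 23.6 to 46.1 TPM in flox and from 34.7 to 59.9 TPM in knockout libraries of batch 1. In batch 2 it ran from 79.9 to 97.4 and from 84.4 to 120 TPM. Its log2 fold change was 0.36 ± 0.11 (adjusted p = 0.0323 in edgeR).

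The other ligand, Alkal1, held 0 counts in all 14 mouse libraries. Over the summed counts of a genotype this allows up to 0.0108 CPM (counts scaled by the library total) in flox and 0.0209 CPM in knockout, taking 3 counts as the limit and counting error only. Alkal2 stood at 8.53 CPM in flox and 184 CPM in knockout when summed the same way. Of the ALKAL ligands only Alkal2 thus had counts in mouse DRG, in both genotypes, at this depth. Whether the quantification could assign reads to Alkal1 is not stated.

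Alk, the receptor, was covered by few reads. It had 25, 12, 16 and 18 counts in knockout libraries 1 to 4 and 32, 2 and 19 in flox libraries 1 to 3. In batch 2 it had 2, 6 and 1 counts in knockout libraries 5 to 7 and 2, 5, 0 and 6 in flox libraries 4 to 7. Batch 1 libraries thus held most of the Alk reads in both genotypes. As a rate, batch 1 ran from 0.815 to 1.72 CPM in knockout and from 0.0423 to 0.614 CPM in flox, without overlap, a separation shared by 4.93% of the 15140 genes tested in batch 1 alone in that direction. The log2 fold change in batch 1 alone was 1.92 ± 0.76, or 3.77-fold. Alk passed the filter there only through the knockout libraries, where it was higher, so the separation and this fold are a description. Batch 2 ran from 0.0359 to 0.195 CPM and from 0 to 0.182 CPM, with overlap throughout. The pooled rates were 1.30 and 0.362 CPM in batch 1 but 0.101 and 0.0982 CPM in batch 2, with a higher rate in knockout libraries of batch 1. Knockout libraries were the shallower ones in that batch, and the part of depth was not tested. The batches were not compared by a test either, since Alk did not pass the filter over all libraries. Without a filter the log2 fold change over both batches was 1.17 ± 0.77, and with the filter set by the design matrix, which Alk passed, it was 1.23 ± 0.72.

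Ltk, the second receptor, passed the filter at a low level. Its TPM in knockout libraries 1 to 7 was 0.208, 0.353, 0.759, 0.561, 0.173, 0.0392 and 0.292. In flox libraries 1 to 7 it was 0.408, 0.470, 0.118, 0.316, 0.0919, 0.0375 and 0.188. The genotypes overlapped in both batches, and the log2 fold change was 0.22 ± 0.57, with an approximate 95% interval from the SE of -0.89 to 1.34. Its sign changed without knockout library 7 (-0.071) or flox library 3 (-0.0057). The interaction of batch and genotype was -0.065 ± 1.21 for Ltk (adjusted p = 0.995 in edgeR).

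**Figure D2:**
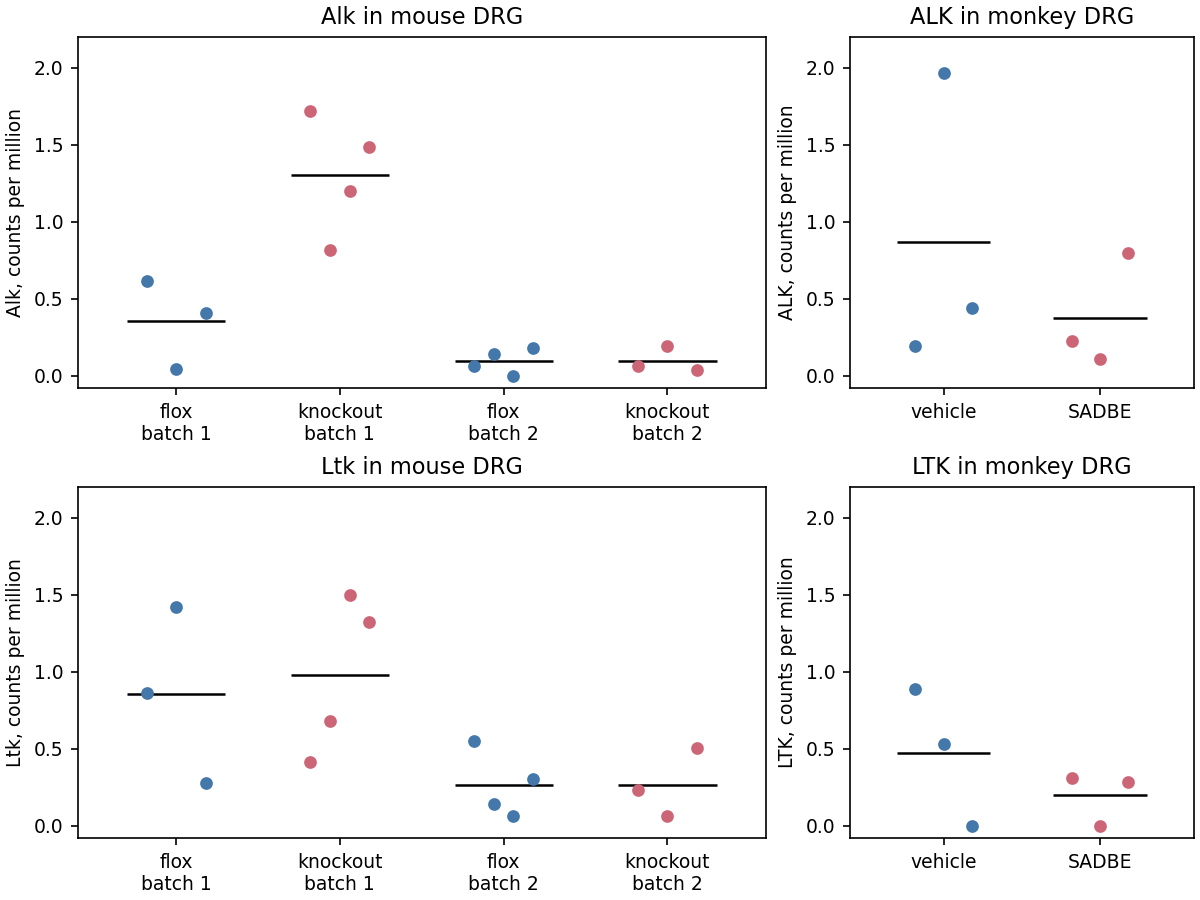
CPM of Alk (top) and Ltk (bottom) in each mouse library by genotype and batch and in each monkey library by treatment, on linear axes; points are libraries and lines are group means. Alk in knockout libraries of batch 1, at 0.815 to 1.72 CPM, lies above flox libraries of batch 1, whereas the genotypes overlap in batch 2 and for Ltk in both batches.

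Within the family, with the TPM scales of the batches pooled, the order of mean TPM in flox DRG was Alkal2, Ltk, Alk and Alkal1. Ltk averaged 0.233 ± 0.167 TPM and Alk 0.0458 ± 0.0459 TPM (SD, n = 7 each). Ltk was above Alk in each of the 7 flox libraries, though the ranges of the pair overlapped (0.0375 to 0.470 and 0 to 0.130 TPM). In knockout DRG Ltk averaged 0.341 ± 0.246 TPM and Alk 0.172 ± 0.148 TPM, and Alk was above Ltk in 2 of 7 libraries, so this pair was not separated beyond its spread. Alk and Ltk together came to at most 0.538 TPM in flox and 1.03 TPM in knockout libraries, and Alkal2 was above their sum in all 14 libraries.

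Markers of cell types moved between the genotypes as well. In bulk tissue a change in the number of cells of a type and a change in RNA per cell cannot be told apart. The counts of marker genes that follow stand beside 7.97% of all tested genes called higher and 7.51% called lower. Of 10 sensory neuron markers, 4 (40%) rose and none fell, with a median log2 fold change of 0.40 against -0.0078 for all tested genes. The largest was Isl1, a sensory neuron transcription factor, at 1.09 ± 0.11 (adjusted p = 1.07e-05 in edgeR). The summed level of the list ran from 2820 to 6124 TPM in flox and from 4655 to 7314 TPM in knockout libraries of batch 1, and from 6883 to 8987 and from 7885 to 11550 TPM in batch 2. Per 1000 TPM of these markers, Alkal2 stood at 0.404 to 2.41 TPM in flox and at 14.5 to 26.5 TPM in knockout libraries.

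Of 8 genes of peptidergic nociceptors, the pain neurons that release substance P and CGRP, 4 (50%) rose: Tac1, Calca, Trpv1 and Trpa1. Tac1, the substance P precursor, rose by 0.78 ± 0.11 and Calca, which encodes CGRP, by 0.80 ± 0.12 (adjusted p of 0.000223 and 0.000338 in edgeR). Per 1000 TPM of this list Alkal2 stood at 1.42 to 3.28 TPM in flox and at 20 to 67.8 TPM in knockout libraries. Of 9 genes of injured sensory neurons 7 (77.8%) rose and 1, Csf1, fell. The transcription factor gene Sox11 rose by 2.92 ± 0.24 (adjusted p = 1.28e-06 in edgeR). Sox11 lies within 20 Mb of Adam17 on chromosome 12, so the limit given below for Alkal2 holds for it too. Sprr1a, a regeneration gene, had 0.0614 ± 0.0807 TPM in flox with the batches pooled. It rose by 6.04 ± 0.65 (adjusted p = 2.1e-05 in edgeR), with few flox reads behind the fold.

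All 6 neutrophil genes rose, with summed levels in batch 1 of 519.9 to 1722 TPM in flox and 4691 to 16120 TPM in knockout libraries, and in batch 2 of 114 to 244 and 1258 to 2334 TPM. S100a8, a calprotectin subunit, rose by 3.12 ± 0.37 (adjusted p = 9.83e-05 in edgeR). All 6 Schwann cell genes fell, as did 5 of 6 fibroblast genes, among them Pmp2 with -1.90 ± 0.33 and Col1a1 with -2.04 ± 0.26 (adjusted p of 0.00161 and 0.000145). Cdh19 alone was called, as higher, among 6 satellite glia genes, and none was called among 6 macrophage, 4 endothelial or 5 muscle genes. In these 3 lists edgeR gave an unadjusted p under 0.05 for 2, 1 and 0 genes. Per 1000 TPM of the neutrophil list Alkal2 overlapped between genotypes in batch 1, at 2.92 to 20.9 TPM in flox and 7.66 to 34.1 TPM in knockout libraries, and did not in batch 2, at 13.2 to 51.3 and 89.6 to 125 TPM. Per 1000 TPM of each other marker list the genotypes did not overlap within either batch. The part of these shifts in the Alkal2 difference was not tested.

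Outside the family, 52 genes of ALK signalling were listed by role, and all 52 passed the filter in mice. In knockout DRG 11 rose, 6 fell and 35 were not called, or 32.7% called against 15.5% of all tested genes. The median log2 fold change was -0.043, against -0.0078 over all tested genes. All 17 called genes had the same sign in both batches, but they were picked by the fit of both batches together. Their shared sign is thus no separate evidence. Batch 1 alone gave 4 that rose and 0 that fell, where edgeR called 1.8% of all tested genes (1.12% higher and 0.687% lower), and batch 2 alone gave 6 and 7, where it called 13.2% (7.22% and 5.99%). The number that rose was 11 with all libraries and fell to between 5 and 7 without knockout library 1, 2 or 5 or without flox library 2, 3, 4, 6 or 7. The number that fell stayed between 6 and 8 in all 14 such fits, and 11 of the 17 calls were kept in every one of them. The calls of Nras, Braf, Map2k1, Jak3, Stat3 and Cblb were lost in at least 1 (adjusted p up to 0.112 in edgeR). Over all tested genes those 14 fits called 1587 to 3108 genes, against 2423 with all libraries. With the replicate number of the labels as a block 6 genes rose and 6 fell, where 2103 of 15654 tested genes were called. Without knockout libraries 6 and 7 the numbers were 9 and 4, where 1757 of 15998 tested genes were called.

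Pleiotrophin and midkine, heparin-binding growth factors that were proposed as ALK ligands before the ALKAL proteins, both fell. Mdk, encoding midkine, ran from 28.2 to 36.9 TPM in flox and 11.6 to 24.0 TPM in knockout libraries of batch 1, and from 48.2 to 64.6 and 21.4 to 35.0 TPM in batch 2. Its groups did not overlap in either batch, and its log2 fold change was -0.88 ± 0.22 (adjusted p = 0.0134 in edgeR). Ptn, encoding pleiotrophin, had a log2 fold change of -0.49 ± 0.13 (adjusted p = 0.0154), also without overlap. Ptprz1, the receptor phosphatase that binds both, rose by 0.82 ± 0.11 (adjusted p = 0.000143 in edgeR). Pooling the TPM scales of the batches, it averaged 2.29 ± 0.488 TPM in flox and 4.49 ± 1.47 TPM in knockout (SD, n = 7 each). Of all tested genes, 2.2% had knockout libraries below flox libraries within each batch, as Mdk and Ptn had. Fibroblast and Schwann cell genes fell beside them, and the part of that in Mdk and Ptn was not tested.

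Among 10 adaptors, which link the kinase to its effectors, 2 fell and none rose, or 20% called, near the 15.5% of all tested genes. These were Shc4, with -1.12 ± 0.25, and Gab1, with -0.73 ± 0.16 (adjusted p of 0.00709 and 0.00605 in edgeR). Frs3, a docking protein of the ALK kinase, had -0.51 ± 0.17 (adjusted p = 0.0530), Irs2 had -0.63 ± 0.36 (0.253) and Grb2 had 0.16 ± 0.13 (0.436). Of 25 effectors 5 rose and 2 fell (28% called). Jak3, a kinase of cytokine signalling, rose by 1.06 ± 0.30, Braf by 0.85 ± 0.26, Nras by 0.52 ± 0.16, Stat3 by 0.43 ± 0.13 and Map2k1 by 0.30 ± 0.10, with adjusted p-values from 0.0277 to 0.0438. Pik3r2, a regulatory subunit of PI3K, fell by 0.48 and Akt2, a survival kinase, by 0.44 on the log2 scale, each with an SE of 0.11 (adjusted p of 0.00724 and 0.0125). Src, Ptpn11 and Rapgef1 had -0.64 ± 0.22, -0.36 ± 0.13 and -0.45 ± 0.17 and were not called (adjusted p from 0.0637 to 0.0767).

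Of 4 genes that restrain or anchor ALK, 3 (75%) rose, against 7.97% of all tested genes, in a list too short for its share to be read. Ptpn1, a phosphatase that removes phosphate from the receptor, rose by 0.75 ± 0.10 (adjusted p = 0.000171 in edgeR). Its TPM ran from 17.4 to 27.2 in flox and from 34.4 to 46.3 in knockout libraries of batch 1, and from 30.1 to 37.7 and 46.0 to 53.5 in batch 2, without overlap. Flot1, a membrane scaffold protein, rose by 0.35 ± 0.09 (adjusted p = 0.0126) and the ubiquitin ligase Cblb by 0.40 ± 0.13 (adjusted p = 0.0440), while Cbl had -0.037 ± 0.23 (0.932).

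Among 10 genes reported as targets of ALK signalling in neuroblastoma, 2 rose and none fell, or 20% called, again near the 15.5% of all tested genes. Vgf, a neuropeptide precursor, rose by 1.73 ± 0.15 (adjusted p = 2.85e-06 in edgeR). It ran from 15.4 to 25.3 TPM in flox and 61.7 to 110 TPM in knockout libraries of batch 1, and from 3.3 to 5.35 and 10.4 to 16.2 TPM in batch 2. Mycn, a transcription factor of the MYC family, rose by 0.91 ± 0.20 (adjusted p = 0.00726 in edgeR). Mycn lies within 20 Mb of Adam17 on chromosome 12, so the limit given below for Alkal2 holds for it too. The ETS factor gene Etv5 had 0.39 ± 0.16 and was not called (adjusted p = 0.116). Ret, the GDNF family receptor, had 0.38 ± 0.20 (adjusted p = 0.200), and Etv4 had -0.64 ± 0.34 (adjusted p = 0.218).

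**Figure D3:**
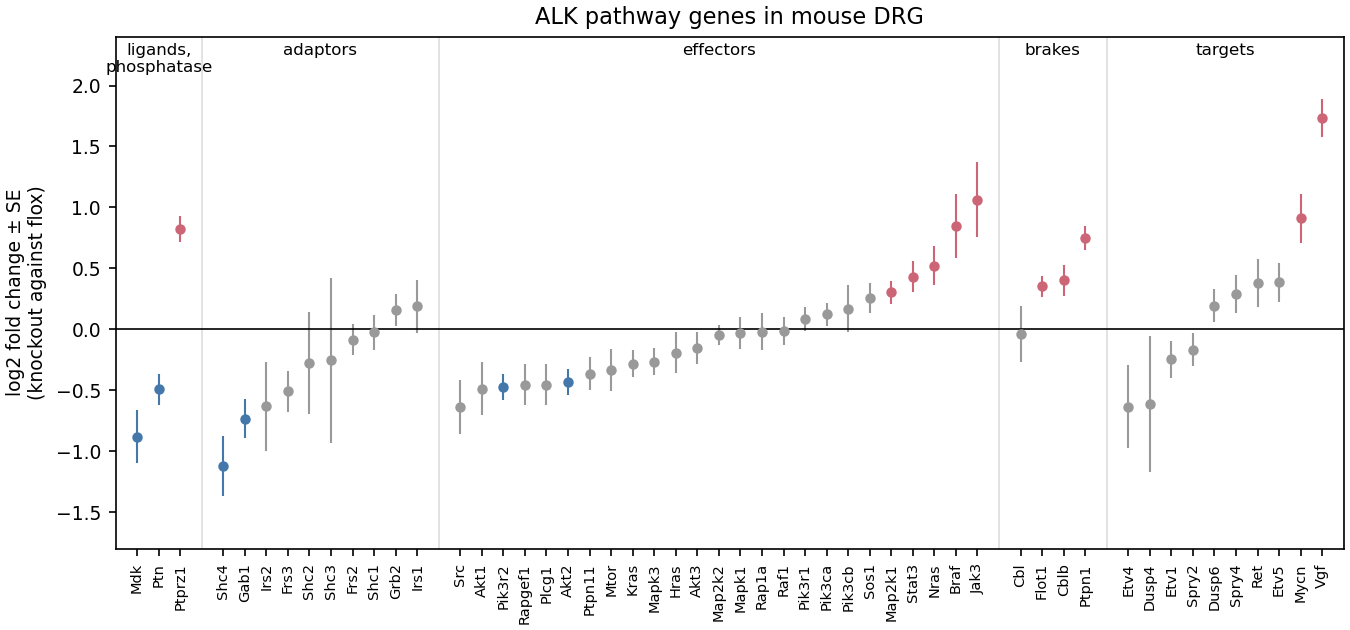
Log2 fold change (knockout against flox) with its SE for 52 ALK pathway genes in mouse DRG, grouped by role and ordered by value; red genes rose, blue genes fell and grey genes were not called by edgeR. Vgf has the highest value at 1.73, and the ligands Mdk and Ptn lie below 0 at -0.88 and -0.49.

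Other growth factor receptors of sensory neurons were set beside Alk and Ltk. Of the 3 tested kinases of the insulin receptor superfamily, Igf1r rose by 0.91 ± 0.23 (adjusted p = 0.0151 in edgeR), while Insr and Insrr had -0.17 ± 0.18 and -0.38 ± 0.42 and were not called. Among Trk and Ret receptors and ligands Bdnf and Gfra3 rose, while the receptor genes Ntrk3 and Gfra2 fell by 0.60 ± 0.17 and 0.86 ± 0.21 (adjusted p of 0.0279 and 0.0121 in edgeR). Bdnf, a neurotrophin made by peptidergic neurons, rose by 3.10 ± 0.15 (adjusted p = 1.98e-09). With the batches pooled, all the receptors named here other than Insrr averaged over 1 TPM in flox libraries, unlike Alk and Ltk.

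Alkal2 lies 9.51 Mb from Adam17 on the same chromosome, so the genotype and linkage to the targeted locus cannot be told apart for it. The same holds for Sox11 and Mycn, at 5.96 and -8.38 Mb from Adam17 (positive on the side of Alkal2). Of 136 tested genes with a GENCODE position within 20 Mb of Adam17, Alkal2 included, 19 were called higher and 12 lower, or 22.8%, against 15.6% on the rest of chromosome 12 and 15.5% on other chromosomes. Alkal2 had the highest log2 fold change of the 136, a description only, since the family was chosen with this comparison known. Its call counts among the 19 and carries no test. Called log2 fold changes above 4 numbered 4 of 391 on the rest of chromosome 12 and 15 of 14557 on other chromosomes. In the other direction the predicted gene Gm28503, at -0.519 Mb from Adam17, was called with -7.57. Some of the calls lay close together around Adam17. From -1.89 to 2.67 Mb, Gm5784, Gm5977, Itgb1bp1, Gm20472, Gm9285, Gm20474, Gm10330 and 9030624G23Rik were called higher and Gm28503 and Iah1 lower. In that stretch 3110053B16Rik, Zfp125, Asap2, Cpsf3, Ywhaq and Adam17 itself were not called. Alkal2 lies outside this stretch. Of the 5 nearest tested genes on each side of Alkal2, 2 were called, both higher: Acp1 and Sh3yl1, a lipid-binding SH3 protein, with 0.53 ± 0.13 (adjusted p = 0.0132 in edgeR). The other 8, Eipr1, Myt1l, Pxdn, Sntg2, Tmem18, Lamb1, Dld and Cbll1, had log2 fold changes from -0.13 to 1.02 and adjusted p-values from 0.0524 to 0.807.

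**Figure D4:**
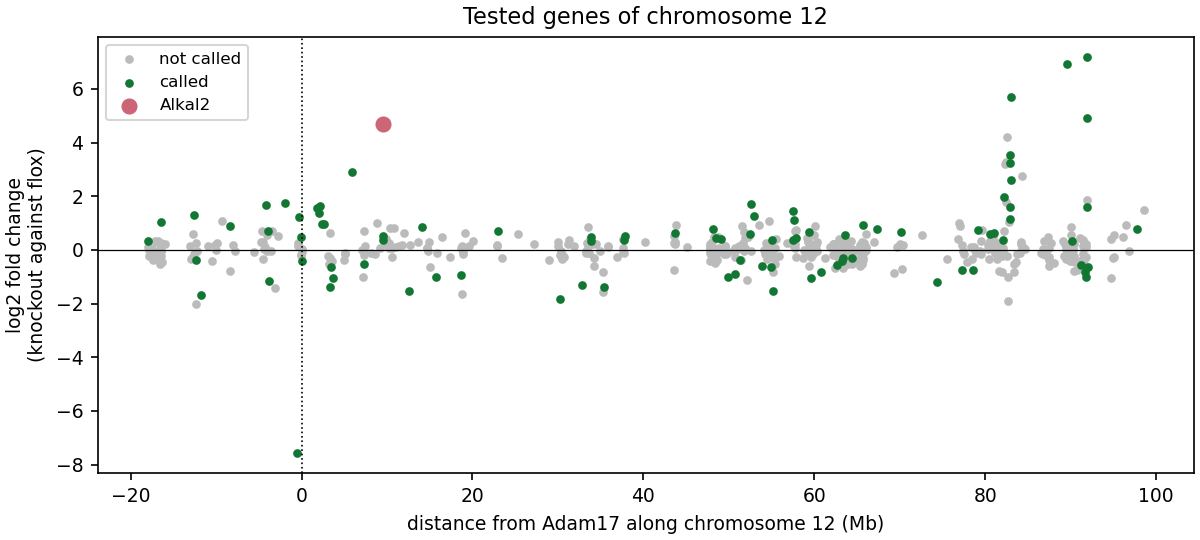
Log2 fold change (knockout against flox) of each tested gene of chromosome 12 against its distance from Adam17 in Mb; green genes were called by edgeR, grey genes were not, and the red point is Alkal2. Alkal2 at 4.69 stands above all other genes within 20 Mb of Adam17, and the lowest point is the predicted gene Gm28503 at -7.57.

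The genes whose pattern was most like that of Alkal2 were ranked among 13031 genes by the Pearson correlation of log2 CPM across the 14 mouse libraries. With only batch means removed, 4 of the first 5 were Tspan8, a tetraspanin, Serpina3n, a protease inhibitor, Nt5e, an enzyme that makes adenosine, and Tifa, an adaptor of innate signalling, with r from 0.978 to 0.984. These correlations share the genotype split: the 4 were called higher in knockout, with log2 fold changes from 1.75 to 3.03. With the means of each genotype within each batch removed, the first 5 were Ndp, which encodes norrin (r = 0.923), Dnajc12, a co-chaperone (r = 0.911), Zfp449 (r = 0.880), Tac1 (r = 0.861) and the pseudogene Mindy4b-ps (r = 0.856). Their Spearman correlations ran from 0.833 to 0.938. These genes were picked by this correlation, which pools the 14 centred points, and the points share library depth and tissue makeup. For Alk, whose counts are sparse, the same 2 rankings gave Rims2, Akap11, Htra1, Slc7a6os and Gde1 and then Borcs5, Slc7a6os, Dpysl4, Rab24 and Gsto1, with r from 0.851 to 0.913.

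**Figure D5:**
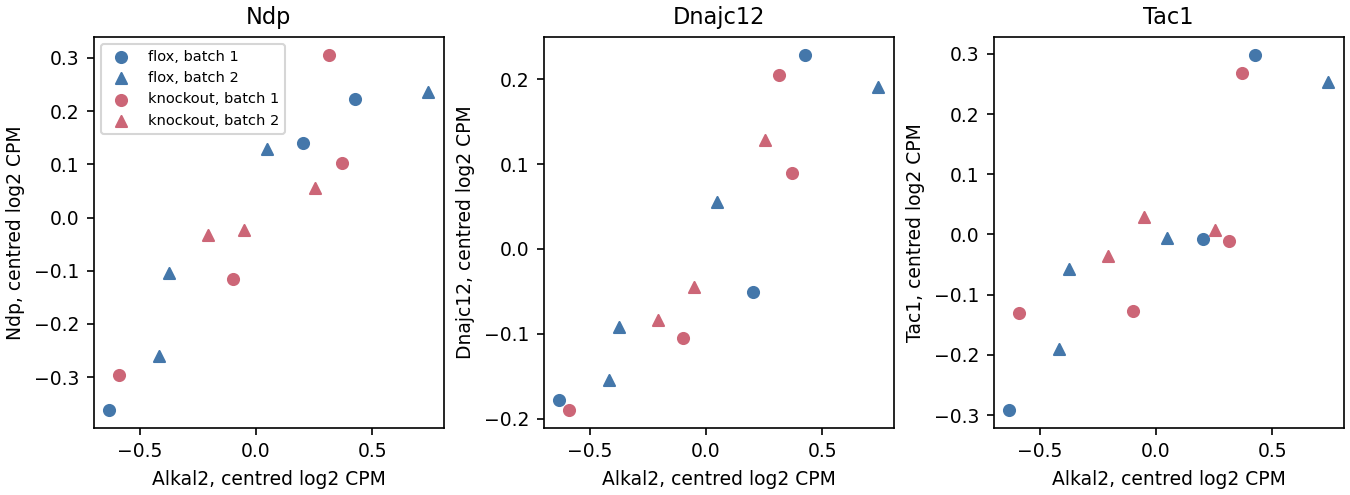
Log2 CPM of Ndp, Dnajc12 and Tac1 against that of Alkal2 in the 14 mouse libraries, each centred on the mean of its genotype and batch; colours are genotypes and symbols are batches. Over all 14 centred points r is 0.923, 0.911 and 0.861, though not every group rises: among knockout libraries of batch 2 the one with the most Alkal2 is not the one with the most Tac1.

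In monkeys the comparison asks whether the family differs in DRG of SADBE-treated skin. ALKAL2 was detected in all 6 libraries, with no difference between the groups past the threshold. It stood at 4.24, 7.92 and 3.97 TPM in SADBE libraries 1 to 3 and at 4.72, 5.53 and 1.85 TPM in vehicle libraries 1 to 3. The groups overlapped, with the highest value in SADBE library 2 and the lowest in vehicle library 3. The means were 5.38 ± 2.21 and 4.03 ± 1.94 TPM (SD, n = 3 each), and the log2 fold change was 0.40 ± 0.59, with an approximate 95% interval from the SE of -0.75 to 1.55 (adjusted p = 0.999 in edgeR). Its sign rested on 1 library, since it was -0.011 without SADBE library 2. Summed counts give 3.83 CPM for SADBE and 3.91 CPM for vehicle.

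The other monkey members did not pass the filter and were not tested. ALK had 5, 1 and 14 counts in SADBE and 5.18, 52 and 6 estimated counts in vehicle libraries. Vehicle library 2 thus held most of the ALK reads, at 1.44 TPM, while the other 5 libraries lay between 0.0562 and 0.375 TPM. LTK had 7, 0 and 5 counts in SADBE and 24, 14 and 0 in vehicle libraries. ALKAL1 had 6, 1 and 0 counts in SADBE and 0, 5 and 1 in vehicle libraries, unlike in mice, where no library held a count. The order of mean TPM after ALKAL2 was ALK, LTK and ALKAL1 in vehicle and ALKAL1, ALK and LTK in SADBE libraries, with ranges that overlapped in every pair.

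Of the 52 pathway genes 50 were tested in monkeys, and none was called by edgeR, against 0% of all 17988 tested genes. An unadjusted p under 0.05 was reached by 1 of the 50 and by 550 of all tested genes, and DESeq2 called 1 of the 50 and 25 of all. That gene was PTPN11, which encodes the phosphatase SHP2, a link from receptors to RAS. It ran from 50.4 to 69.2 TPM in SADBE and from 6.93 to 14.1 TPM in vehicle libraries, without overlap, a separation found upward in 5.04% and downward in 3.99% of tested genes. Its log2 fold change was 2.45 ± 0.45 (unadjusted p = 0.000433, adjusted p = 0.999 in edgeR; adjusted p = 0.000621 in DESeq2). In mice Ptpn11 had -0.36 ± 0.13. The next lowest p-values belonged to SHC2, SHC1, PIK3CB and JAK3, with log2 fold changes of 1.06, -1.06, -1.08 and 2.43 and unadjusted p-values from 0.0560 to 0.0866.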

How the data were processed

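Per the submitters' processing notes, the authors used kallisto, a pseudoaligner, and name GRCm38, also on the monkey samples; no source used here gives its version or the monkey transcriptome. The authors deposited estimated counts and TPM per gene for each species. A mouse row that names no gene, 0.0785% to 0.186% of counts, was left out. Rounded estimated counts were fitted in R 4.3.3 with edgeR 4.0.16 (quasi-likelihood test, TMM scaling, batch as a term in mice) and adjusted over all tested genes by Benjamini-Hochberg at 0.05. SEs of log2 fold changes came from the F statistic. Genes were kept by filterByExpr on the groups (minimum count 10, minimum total 15). A filter on the design matrix had been run first, and both outputs were seen before the groups were adopted; it is given as an alternative chosen after seeing the data. DESeq2 1.42.0 and limma 3.58.1 on log2(TPM + 1) or log2(TPM + 0.1) were other alternatives. Intervals from counts cover counting error only. No libraries of a group were copies, and scripts were tested on simulated data. Coordinates are from GENCODE M21. The members, lists and tests were chosen with earlier results of these data known, and the motifs after the promoter had been seen. Named genes are the members, Adam17, pathway genes that were called or had the 3 next lowest p-values of their list, up to 2 genes per marker list, the 5 most correlated genes, the 5 neighbours on each side and, in monkeys, the 5 pathway genes of lowest p. Genes of the other receptor lists, genes named for a count of 5 or fewer and Ddx3y fall outside this rule. So do Gm28503 and the other genes named as lying close around Adam17. All of these were chosen after their values were seen. A gene among the 5 most correlated and a gene of the other receptor lists are not reported here.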

Additional observations from a re-analysis of the deposited data

Results flagged for a closer look

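Akt1, a kinase of the PI3K route, was marked because its genotype difference was not the same in the 2 batches. The interaction of batch and genotype was -1.34 ± 0.26 (log2 fold change of batch 2 minus that of batch 1, adjusted p = 0.0231 in edgeR), and it was the only one of the 52 pathway genes past the threshold, where 1.03% of all tested genes were called. In batch 1 it ran from 39.7 to 68.8 TPM in flox and from 51.8 to 83.4 TPM in knockout libraries, which overlapped, and in batch 2 from 22.7 to 35.7 and from 9.76 to 16.3 TPM, with knockout lower. Over both batches Akt1 was not called (-0.49 ± 0.22, adjusted p = 0.140 in edgeR). The batches also differ in the Y-linked RNA of knockout libraries 6 and 7 and in the depth gap of batch 1. The part of either in the Akt1 interaction was not tested. In the 12 groups of mouse libraries checked over Alkal2, Alk and Ltk, no TPM value stood apart from its group by Dixon's criterion.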

How the results depend on the processing

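The Alkal2 log2 fold change, 4.69 with all libraries, lay between 4.44 and 4.76 with DESeq2, no filter, limma on either TPM scale, no batch term, the replicate block or without knockout libraries 6 and 7. It was 3.88 in batch 1 alone and 5.50 in batch 2 alone, and 4.55 to 4.87 when each library was left out. For Ltk those fits gave -0.071 to 0.50. Scaling each library to the full TPM scale raised the batch 1 flox mean of Alkal2 from 7.57 to 10.6 TPM. Pathway genes that rose numbered 11 in edgeR and DESeq2, 9 without knockout libraries 6 and 7, 6 without a filter, 5 with limma at either pseudocount, 4 with limma on scaled TPM, 2 without the batch term, 4 in batch 1, 6 in batch 2, 6 with the replicate block, and 5 to 11 when each library was left out. Those that fell numbered 6 in edgeR, without a filter and with the replicate block, 8 with DESeq2, 4 with limma at either pseudocount, 7 with limma on scaled TPM, 1 without the batch term, 0 in batch 1, 7 in batch 2, 4 without knockout libraries 6 and 7, and 6 to 8 when each library was left out. Alkal2's difference between batches was 1.58 with DESeq2, where it passed the threshold, and 1.37 to 1.92 when each library was left out; for Ltk it was -0.88 to 0.59. In monkeys the ALKAL2 value was -0.011 to 0.56 when each library was left out and 0.41 with the replicate block, and DESeq2 called 1 pathway gene. Setting the filter by the design matrix, an alternative chosen after seeing the data, tested 16156 mouse genes and called 2435, with Alkal2 at 4.69, 11 pathway genes that rose and 6 that fell. In mice the calls over all tested genes moved too: 2423 of 15654 in the main fit, 3310 with DESeq2 and 2147 of 23332 without a filter. They were 1870 and 1845 with limma at pseudocounts 1 and 0.1, 2551 with limma on scaled TPM and 2103 with the block. Without the batch term they were 564, in batch 1 alone 273 of 15140 and in batch 2 alone 2085 of 15780. Without knockout libraries 6 and 7 they were 1757 of 15998. Leaving out each library gave 1587 to 3108. The cause of these shifts was not tested. Same-numbered mouse libraries did not deviate together (correlations of -0.13 to 0.147), and number 4 joins a batch 1 knockout with a batch 2 flox library. In monkeys the correlations were 0.208, -0.312 and 0.233, too few to tell whether the numbers pair libraries. The labels state no pairing, so the main fits are unpaired and the block is given as an alternative. With the block 12 of the 17 pathway calls were kept. Depth limits Alk, Ltk and Alkal1, at 0 to 67 counts per mouse library.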
